A study of Mus musculus with 4 samples.

Results

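The transcripts described here are those of the mitochondrial genome, taken as all genes whose symbol begins with mt-, which gave 37 of the 47069 gene identifiers in the table. They comprised 13 genes for mRNAs, 2 for rRNAs and 22 for tRNAs. RNA was sequenced from primary mouse bone marrow stromal cells (mBMSCs), the adherent cells of tibia and femur marrow of wild-type C57BL/6J mice aged 8 weeks, at passage 1. The cells had been kept for 3 days with 1 μM dexamethasone (DEX), a synthetic glucocorticoid, together with either 50 μM ginkgolic acid (GA), an inhibitor of the sumoylation E1 enzyme, or the same volume of the solvent DMSO. Each group had 2 libraries, and both groups carried DEX, so the comparison is of GA with DMSO on a DEX background. The values are FPKM, which counts the fragments of a gene per kilobase of its length, relative to the total of the library.

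Mitochondrial DNA is a small circle that encodes subunits of the respiratory chain and ATP synthase together with the rRNAs and tRNAs that translate them. Both of its strands are transcribed into long precursors that run across many genes, and most mRNAs and rRNAs are freed by cutting out the tRNAs that lie between them. Genes of 1 precursor can therefore still reach unequal levels through processing, polyadenylation and decay. All other subunits of the same complexes, and the factors that copy, transcribe and process mitochondrial nucleic acid, are encoded in the nucleus. In these libraries the RNA had been enriched with oligo(dT) beads, which capture poly(A) tails. Mitochondrial mRNAs generally carry such tails, whereas tRNAs end in CCA and rRNA tails are short. In human cells the ND6 mRNA is an exception, with little or no tail.

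Of the 13 mRNAs of the mitochondrial genome, 11 were higher in GA plus DEX than in DMSO plus DEX. Of all genes tested, 46.3% were higher. The 7 abundant ones, mt-Co1, mt-Cytb, mt-Nd1, mt-Nd2, mt-Nd4, mt-Nd5 and mt-Nd6, each had a mean above 100 FPKM and rose between 1.88-fold and 2.07-fold. With the libraries shifted to a common median, the log2 fold changes of these 7 were 0.68 to 0.81. The other 6 mRNAs were below 30 FPKM in every library, among them mt-Co3, which did not pass the test, and mt-Nd4l, which had no reads at all. Of the tRNAs only mt-Tp had reads, and it rose with the mRNAs. The rRNAs mt-Rnr1 and mt-Rnr2 depended on a single DMSO plus DEX library, which stood apart in them and in other genes.

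The libraries held between 21559951 and 31069538 reads behind their FPKM values. Whether libraries sharing a treatment derive from different mice or dishes is not given in the sources used here. The p-values therefore describe scatter among 4 libraries, which may be purely technical. DMSO plus DEX replicate 2 stood apart. There, 11 genes with at least 5 FPKM were more than 8 times as high as in each other library. No gene met that limit in any other library. Among the 11 were mt-Rnr1, mt-Rnr2 and CT010467.1, annotated as an rRNA gene. Genes that are not rRNA genes were among them too, namely Hsp90aa1, Rpl12, Rrp1, Rrp1b and Rrp7a. Hsp90aa1 had 175 FPKM in that library and 6.11 to 7.31 FPKM in the others. Over all 12174 genes tested with limma, the level in GA plus DEX was above that in DMSO plus DEX for 46.3% and below it for 11.9% at an adjusted p under 0.05. When the libraries were shifted to a common median, the median log2 fold change of all genes moved from 0.19 to -0.04 and the calls became 19.5% higher and 27.9% lower. The 10 most abundant genes took 22.3% to 23.7% of the reads in DMSO plus DEX and 12.3% to 13.4% in GA plus DEX.

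Marker genes were read beside the members because the cultures could hold several cell types. The 8 adipocyte markers were all higher in GA plus DEX, with a summed level of 15.4 to 15.5 FPKM in DMSO plus DEX and 4021 to 4682 FPKM in GA plus DEX. All 6 osteoblast markers were lower (19747 to 20655 FPKM against 12131 to 12681 FPKM). Of the stromal markers, 5 of 9 tested were higher and 3 lower, and their summed level, mostly Col1a1, was 46496 to 50678 FPKM in DMSO plus DEX and 20536 to 24309 FPKM in GA plus DEX. The 6 osteoclast markers tested were higher (250 to 261 FPKM against 459 to 517 FPKM), as were 5 of 6 macrophage markers (252 to 262 FPKM against 393 to 440 FPKM). Both endothelial markers tested were higher at low levels (a summed 1.52 to 1.60 FPKM against 3.57 to 5.46 FPKM), and erythroid markers stayed between 0 and 0.773 FPKM in sum. The part of these cells in the results was not tested, and in bulk RNA fewer cells of a type and less RNA per cell cannot be told apart.

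Some mitochondrial genes could not be told from other annotated genes by sequence, which bears on their levels and is shown first. For each member, every window of 50 bases was looked up in all other annotated transcripts. The nuclear genome outside annotated transcripts was not searched, so copies there would be missed. No such window of mt-Nd1, mt-Nd6, mt-Cytb, mt-Atp8, mt-Rnr1 or any tRNA was found elsewhere, and mt-Rnr2, mt-Nd5 and mt-Nd2 shared 1.04%, 7.61% and 8.19% of theirs. mt-Co1 shared 51.1% and mt-Nd4 62.2%. Of mt-Nd3, mt-Nd4l, mt-Atp6, mt-Co3 and mt-Co2, 98.0%, 98.8%, 99.5%, 99.9% and 100% of the windows were present in another transcript. The copies with the most shared windows were Gm29216, Gm28439, Gm28438, Gm10222, Gm10925, Gm28437 and Gm28661, annotated next to each other on chromosome 1. Over their whole placed length Gm28661, Gm10925, Gm28437, Gm10222 and Gm28439 had 0 bases different from the mitochondrial gene, Gm28438 had 1 and Gm29216 had 6.

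The gene mt-Nd4l is printed whole because it had no reads and its copy repeats it base for base. It lies at chrM:9877-10173 (GRCm38, plus strand), and capitals mark the 3 bases at its end that Gm10222 lacks.
mt-Nd4l: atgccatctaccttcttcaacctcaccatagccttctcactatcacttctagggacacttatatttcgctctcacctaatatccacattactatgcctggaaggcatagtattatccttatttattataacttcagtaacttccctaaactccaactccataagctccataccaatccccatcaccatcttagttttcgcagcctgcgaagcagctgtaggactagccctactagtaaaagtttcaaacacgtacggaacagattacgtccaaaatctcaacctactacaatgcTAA

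The start of mt-Nd3 (chrM:9459-9491, plus strand) and the matching start of Gm28438 (chr1:24613087-24613119, minus strand) are shown because they hold the 1 base at which that pair differs, which is in capitals.
mt-Nd3: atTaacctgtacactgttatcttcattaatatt
Gm28438: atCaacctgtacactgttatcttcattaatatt

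Bases 837 to 916 of mt-Nd4 (chrM:11003-11082, plus strand) are shown because the annotated copy Gm28439 ends within them. Capitals mark the bases past base 876, which Gm28439 lacks.
mt-Nd4: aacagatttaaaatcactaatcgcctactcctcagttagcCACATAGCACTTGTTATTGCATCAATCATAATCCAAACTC

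The 7 copies themselves had between 0 and 1.88 FPKM, or 0 to 16 reads a library. The highest was Gm28438, the copy of mt-Nd3, with 0.653 and 0.789 FPKM in DMSO plus DEX and 1.75 and 1.88 FPKM in GA plus DEX. How the authors treated reads that match several places is not given in the sources used here, and its part in the low levels of mt-Co2, mt-Atp6, mt-Co3, mt-Nd3 and mt-Nd4l was not tested. The plot of levels in gene order sets the windows shared beside the FPKM values.

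**Figure D1:**
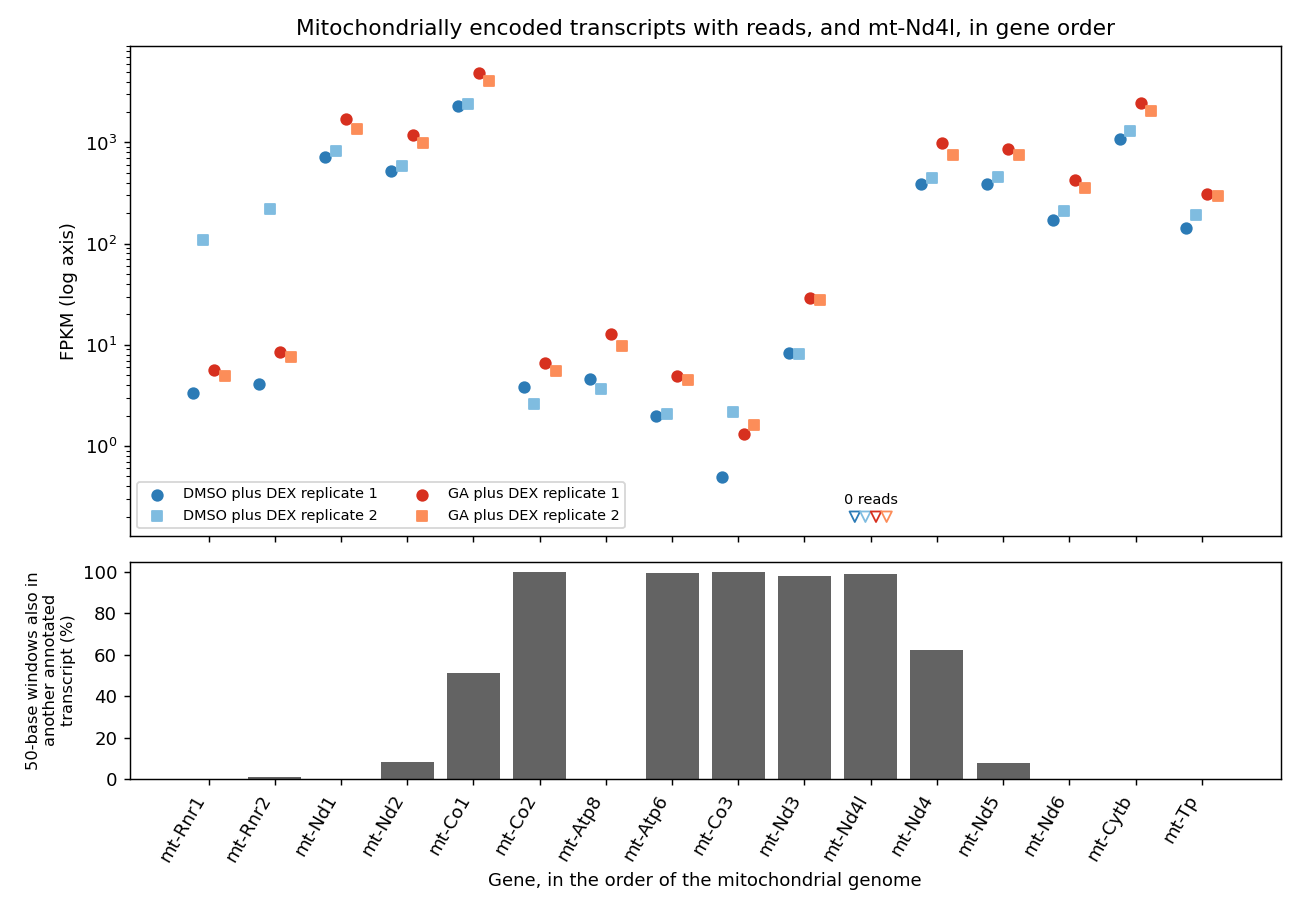
FPKM of each mRNA, rRNA and mt-Tp in each of the 4 libraries (upper panel, log axis, genes in genome order, blue DMSO plus DEX, red GA plus DEX, open triangles 0 reads) and the percentage of 50-base windows of each gene also found in another annotated transcript (lower panel). The stretch from mt-Co2 to mt-Nd4l lies below 30 FPKM in every library while mt-Co1 and mt-Nd4 on either side lie between 389 and 4837 FPKM.

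Together the members took 0.739% of the reads of DMSO plus DEX replicate 1 (95% Wilson interval 0.736% to 0.742%) and 0.864% of replicate 2 (0.861% to 0.868%). In GA plus DEX they took 1.63% of the reads of replicate 1 (1.63% to 1.64%) and 1.36% of replicate 2 (1.35% to 1.36%). These intervals cover counting error only, and the groups lay apart by more than the libraries within a group. The 13 mRNAs summed to 5597 and 6253 FPKM in DMSO plus DEX and to 12491 and 10338 FPKM in GA plus DEX, a ratio of group means of 1.93. No test was made of that sum. The 7 abundant mRNAs held between 99.5% and 99.7% of it in every library.

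**Figure D2:**
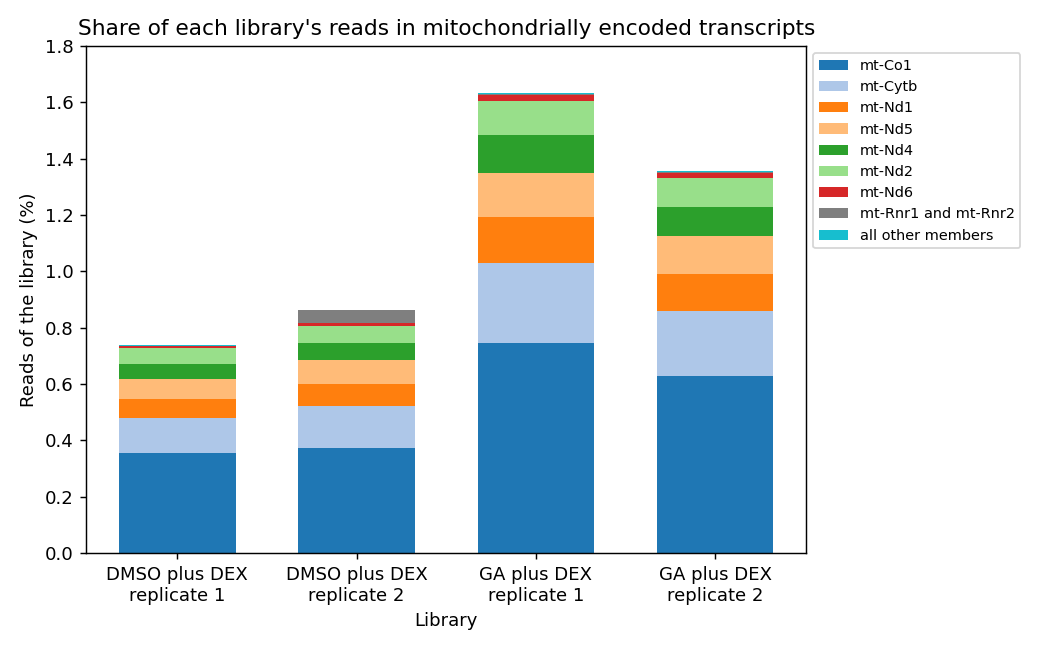
Percentage of each library's reads assigned to mitochondrially encoded transcripts, stacked by gene, with both rRNAs and all remaining members as the uppermost parts. The DMSO plus DEX bars end at 0.739% and 0.864% and the GA plus DEX bars at 1.63% and 1.36%, and the grey rRNA part is thick in DMSO plus DEX replicate 2 alone.

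The composition by complex was as follows, from the FPKM as listed. Complexes I, IV and V hold genes whose windows are partly or wholly found in other transcripts, mt-Co1 and mt-Nd4 among them. The part of this in the shares of all complexes was not tested. Among the summed FPKM of the 13 mRNAs, the subunits of complex I, the NADH dehydrogenase, took 39.3% and 40.3% in DMSO plus DEX and 41.3% and 40.8% in GA plus DEX. The 3 subunits of complex IV, the cytochrome c oxidase, took 41.0% and 38.8% against 38.8% and 39.4%, nearly all of it mt-Co1. mt-Cytb, the only mitochondrially encoded subunit of complex III, took 19.6% and 20.7% against 19.7% and 19.6%. The shares of complexes III and IV overlapped between the groups, while those of complex I did not. The gap of complex I, from 40.3% to 40.8%, was smaller than the spread within DMSO plus DEX, from 39.3% to 40.3%. The complex V pair mt-Atp8 and mt-Atp6 held 0.117% and 0.0908% against 0.142% and 0.138%, also without overlap. No test was made of the shares by complex. Per gene, mt-Co1 held 38.7% to 41.0% over the 4 libraries, mt-Nd1 12.8% to 13.6%, mt-Nd2 9.32% to 9.54%, mt-Nd4 6.96% to 7.82%, mt-Nd5 6.84% to 7.22% and mt-Nd6 3.08% to 3.42%.

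Of the 37 members, 15 had a mean of at least 1 FPKM and were tested, and the other 22 had 0 reads in every library. limma called 12 of the 15 higher and 0 lower, beside 46.3% and 11.9% of all genes, and at an unadjusted p under 0.05 the count of lower members was also 0. All 12 had both GA plus DEX libraries above both DMSO plus DEX libraries, as did 62.5% of all genes tested. Among the 12 mRNAs tested, 11 were higher, and their median log2 fold change was 0.95, beside 0.19 over all genes tested. After the shift to a common median, which lowered every log2 fold change by 0.23, the same 12 members were called higher (19.5% of all genes), with log2 fold changes of 0.68 to 0.81 for the 7 abundant mRNAs.

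mt-Co1, the catalytic subunit of cytochrome c oxidase, was the most abundant member, with 2293 and 2424 FPKM in DMSO plus DEX and 4837 and 4071 FPKM in GA plus DEX. The groups did not overlap, and the rise was 1.89-fold (log2 fold change 0.91, SE 0.11, limma adjusted p = 2.91e-04). mt-Cytb, the cytochrome b of complex III, had 1094 and 1297 FPKM against 2466 and 2027 FPKM. It also rose without overlap, by 1.88-fold (log2 fold change 0.91, SE 0.12, limma adjusted p = 5.78e-04). The level of mt-Cytb was 47.7% and 53.5% of that of mt-Co1 in DMSO plus DEX and 51.0% and 49.8% in GA plus DEX, so the proportion of these 2 overlapped between the groups.

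The complex I subunits mt-Nd1 and mt-Nd2 belong to the membrane arm of the enzyme. mt-Nd1 had 717 and 822 FPKM in DMSO plus DEX and 1697 and 1357 FPKM in GA plus DEX, and rose 1.98-fold (log2 fold change 0.98, SE 0.12, limma adjusted p = 3.52e-04). mt-Nd2 had 522 and 583 FPKM against 1180 and 987 FPKM, and rose 1.96-fold (log2 fold change 0.97, SE 0.10, limma adjusted p = 1.65e-04). For both genes the lower GA plus DEX library lay above the higher DMSO plus DEX library.

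mt-Nd4 and mt-Nd5 encode further membrane subunits of complex I, related to bacterial antiporters. mt-Nd4 had 389 and 444 FPKM in DMSO plus DEX and 977 and 749 FPKM in GA plus DEX (2.07-fold, log2 fold change 1.04, SE 0.13, limma adjusted p = 3.73e-04). mt-Nd5 had 390 and 452 FPKM against 854 and 744 FPKM (1.90-fold, log2 fold change 0.92, SE 0.10, limma adjusted p = 1.68e-04). Neither overlapped between the groups. In the windows found in no other transcript, mt-Nd4 would hold a mean of 1144 FPKM in DMSO plus DEX and 2369 FPKM in GA plus DEX if all its reads came from there, and mt-Co1 4985 and 9413 FPKM. The folds are the same by construction, and the place of mt-Nd4 among the abundant mRNAs depends on the length counted.

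mt-Nd6 is the only mitochondrial mRNA encoded on the other strand, and it overlaps the end of mt-Nd5 by 14 bases. It had 172 and 212 FPKM in DMSO plus DEX and 425 and 354 FPKM in GA plus DEX (2.02-fold, log2 fold change 1.01, SE 0.12, limma adjusted p = 2.93e-04). Its level was 44.2% and 47.0% of that of mt-Nd5 in DMSO plus DEX and 49.7% and 47.5% in GA plus DEX. The library protocol describes no step that marks strand and the strand setting of the counting is not given, so reads of mt-Nd6 cannot be told from transcripts of the opposite strand.

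Within each group the 7 abundant mRNAs differed between the libraries in the same direction. All 7 were higher in GA plus DEX replicate 1 than in replicate 2, by 1.15-fold to 1.31-fold. All 7 were also higher in DMSO plus DEX replicate 2 than in replicate 1, by 1.06-fold to 1.23-fold. Adipocyte markers were likewise higher in GA plus DEX replicate 1 (4682 FPKM in sum) than in replicate 2 (4021 FPKM). In DMSO plus DEX their sums were nearly equal, at 15.42 FPKM in replicate 1 and 15.47 FPKM in replicate 2. Nuclear subunits were also higher in GA plus DEX replicate 1 than in replicate 2, in complex IV (3000 and 2630 FPKM in sum) and complex V (4298 and 3917 FPKM). Osteoblast markers (12131 and 12681 FPKM) and stromal markers (20536 and 24309 FPKM) were lower in replicate 1. The share of all genes with this pattern was not counted, and a difference in scale between libraries cannot be told apart from it. A link between the adipocyte markers and the mRNAs was not tested. Set against the mean of the 13 mRNAs in the same library, the log2 fold changes of the 7 lay between 0.02 and 0.15. That mean includes the scarce mRNAs, with mt-Nd4l, which had no reads, among them. Against the mean of the 7 themselves the values ran from -0.06 for mt-Cytb to 0.08 for mt-Nd4.

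The 6 scarce mRNAs form 1 unbroken run of mRNA genes from mt-Co2 to mt-Nd4l. Their sum was 19.2 and 18.5 FPKM in DMSO plus DEX and 54.6 and 48.9 FPKM in GA plus DEX. All but mt-Atp8 are repeated in other annotated transcripts. The levels of these 6, and the share of complex V given above, stand as listed. They say nothing of the order of these genes beside the abundant mRNAs. mt-Atp8, with no window in another annotated transcript, was also below 30 FPKM in every library. The part of unannotated copies, which were not searched, was not tested. mt-Nd4l and mt-Nd4 are known to be read from the same mRNA, with 7 bases of overlap, yet mt-Nd4l had 0 reads in each library while mt-Nd4 had 15736 to 29038. By counting alone, 0 reads allow up to 3 reads, or 0.325 to 0.469 FPKM of mt-Nd4l depending on the library. This bound holds only for reads that could be assigned to the gene. As 98.8% of its windows lie in another transcript, it does not limit the true level of mt-Nd4l.

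mt-Nd3, a small complex I subunit, had the largest rise among the members, as counted. Of its windows 98.0% lie in another transcript, and the part of this in the rise was not tested. It had 8.32 and 8.04 FPKM in DMSO plus DEX (90 and 72 reads) and 28.9 and 27.4 FPKM in GA plus DEX (217 and 235 reads). The rise was 3.44-fold (log2 fold change 1.67, SE 0.06, limma adjusted p = 7.80e-07), and the ratio of pooled read rates had a 95% counting interval of 2.86 to 4.13. Set against the mean of the 7 abundant mRNAs its log2 fold change was 0.70, and against the mean of the 13 mRNAs it was 0.78. A per-gene fit without moderation did not call the latter after adjustment over all genes (unadjusted p = 0.0188, adjusted p = 0.0547 in limma's lmFit). In that fit 0 members were called and mt-Nd3 was the only 1 at an unadjusted p under 0.05. The moderated limma fit of the same values called 5 members, mt-Nd3 among them, but it also called 90.1% of all genes, so its calls are not read further.

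mt-Atp8 and mt-Atp6 encode subunits of ATP synthase and are translated from 1 mRNA. The stretch at chrM:7907-7989 (GRCm38, plus strand) is shown because both genes hold the 43 bases in capitals, in different reading frames.
mt-Atp8 and mt-Atp6: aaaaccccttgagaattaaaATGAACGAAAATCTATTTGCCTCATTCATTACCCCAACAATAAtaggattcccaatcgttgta

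mt-Atp8 had 4.58 and 3.62 FPKM in DMSO plus DEX and 12.7 and 9.76 FPKM in GA plus DEX, from 19 to 56 reads a library. It rose 2.74-fold (log2 fold change 1.26, SE 0.13, limma adjusted p = 1.91e-04). mt-Atp6 had 1.99 and 2.06 FPKM against 4.97 and 4.53 FPKM and rose 2.35-fold (log2 fold change 0.93, SE 0.09, limma adjusted p = 1.20e-04). The 95% counting intervals of the ratio of pooled read rates, 1.89 to 3.87 for mt-Atp8 and 1.77 to 3.13 for mt-Atp6, overlapped. They cover counting error only, and 99.5% of the windows of mt-Atp6 lie in another transcript. A difference between the genes of this mRNA was not tested. The fitted log2 fold changes are on the log2(FPKM + 1) scale, which understates the change of such low genes.

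mt-Co2 and mt-Co3 encode the other subunits of the core of cytochrome c oxidase. mt-Co2 had 3.86 and 2.61 FPKM in DMSO plus DEX and 6.65 and 5.52 FPKM in GA plus DEX, and rose 1.88-fold (log2 fold change 0.75, SE 0.15, limma adjusted p = 0.00376). mt-Co3 had 0.493 and 2.18 FPKM against 1.30 and 1.61 FPKM, from 12 to 44 reads a library. The groups of mt-Co3 overlapped and it did not pass the test (log2 fold change 0.17, SE 0.31, limma adjusted p = 0.658). Leaving out DMSO plus DEX replicate 1, its lowest library, gave a log2 fold change of -0.38, and leaving out replicate 2 gave 0.71. The shift to a common median gave -0.063 and quantile normalization -0.11.

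**Figure D3:**
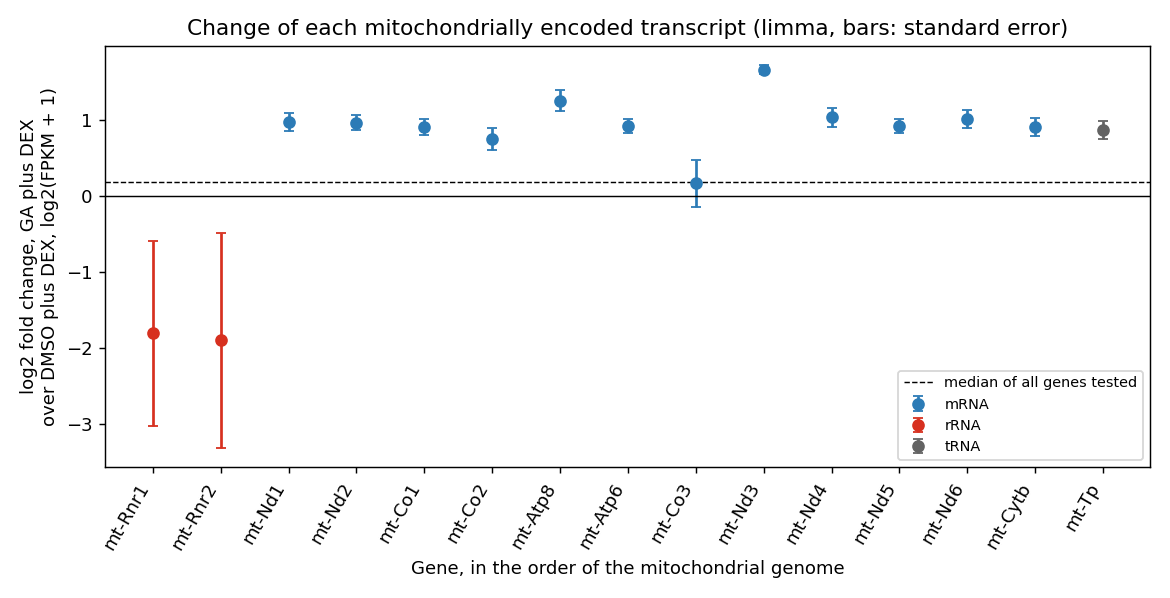
log2 fold change of GA plus DEX over DMSO plus DEX for the 15 members tested, on log2(FPKM + 1), in genome order (points, bars 1 standard error of the limma fit, solid line 0, dashed line the median of all genes tested at 0.19). mt-Nd3 is highest at 1.67, the 7 abundant mRNAs lie between 0.91 and 1.04, and the rRNAs carry errors of 1.22 and 1.42.

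The rRNAs mt-Rnr1 and mt-Rnr2, of the small and the large mitochondrial ribosomal subunit, did not pass the test. mt-Rnr1 had 3.37 and 110 FPKM in DMSO plus DEX and 5.68 and 4.89 FPKM in GA plus DEX (log2 fold change -1.81, SE 1.22, limma adjusted p = 0.232). mt-Rnr2 had 4.11 and 222 FPKM against 8.50 and 7.58 FPKM (log2 fold change -1.90, SE 1.42, limma adjusted p = 0.278). In both genes 1 DMSO plus DEX library lay below and the other far above both GA plus DEX libraries.

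In DMSO plus DEX replicate 2 the rRNAs took 5.28% of the members' reads (95% Wilson interval 5.18% to 5.37%), against 0.132%, 0.116% and 0.123% in DMSO plus DEX replicate 1, GA plus DEX replicate 1 and GA plus DEX replicate 2. CT010467.1 had 814 FPKM in that library and 12.2 to 13.03 FPKM in the others. With 1 DMSO plus DEX library left out, the other is alone in its group, the spread comes from the GA plus DEX libraries and the prior, and the lone library is assumed to vary like them. On that footing, without DMSO plus DEX replicate 2, limma called both rRNAs higher in GA plus DEX, with log2 fold changes of 0.52 for mt-Rnr1 (adjusted p = 0.00675) and 0.82 for mt-Rnr2 (adjusted p = 3.04e-04), where 39.0% of all genes were called higher and 9.33% lower. Without replicate 1 it called both lower, with log2 fold changes of -4.14 and -4.63 (36.8% of all genes were higher and 10.3% lower). No direction is therefore given for the rRNAs. Of the 12 mRNAs tested, the same fits called all 12 higher without DMSO plus DEX replicate 2, and all but mt-Co3 without replicate 1.

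mt-Tp, the tRNA for proline, is printed whole because it was the only tRNA with reads. It is encoded on the same strand as mt-Nd6, at chrM:15356-15422 (GRCm38, minus strand), with no base in capitals.
mt-Tp: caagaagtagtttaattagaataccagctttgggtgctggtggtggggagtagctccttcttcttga

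mt-Tp had 144 and 190 FPKM in DMSO plus DEX (299 and 328 reads) and 311 and 297 FPKM in GA plus DEX (449 and 489 reads). It rose 1.82-fold without overlap (log2 fold change 0.87, SE 0.12, limma adjusted p = 6.74e-04). Its level was 13.1% and 14.7% of that of mt-Cytb in DMSO plus DEX and 12.6% and 14.6% in GA plus DEX, a ratio that overlapped between the groups. Without strand, its reads cannot be told from those of a transcript of the other strand that runs past it. The tRNA genes are 59 to 75 bases long. The other 21 were mt-Tf, mt-Tv, mt-Tl1, mt-Ti, mt-Tq, mt-Tm, mt-Tw, mt-Ta, mt-Tn, mt-Tc, mt-Ty, mt-Ts1, mt-Td, mt-Tk, mt-Tg, mt-Tr, mt-Th, mt-Ts2, mt-Tl2, mt-Te and mt-Tt. All had 0 reads in all libraries, also mt-Tt, the neighbour of mt-Tp.

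By strand, 28 members (12 mRNAs, both rRNAs and 14 tRNAs) are annotated on the plus strand and 9 (mt-Nd6 and 8 tRNAs) on the minus strand. The minus-strand members with reads, mt-Nd6 and mt-Tp, rose 2.02-fold and 1.82-fold. The plus-strand abundant mRNAs rose 1.88-fold to 2.07-fold, a range that holds the value of mt-Nd6 and lies just above that of mt-Tp. Reads of mt-Nd6 and mt-Tp cannot be told from transcripts of the opposite strand. These folds therefore cannot show how the transcripts of each strand changed.

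Of the 73 nuclear partners of these subunits 63 were higher as well, beside 46.3% of all genes, by less in the median. Of the 36 nuclear subunits of complex I tested, 31 were called higher and 0 lower (median log2 fold change 0.46). The largest rises were those of Ndufab1, the mitochondrial acyl carrier protein (12.97 to 22.9 FPKM in the group means, log2 fold change 0.78), Ndufa10 (58.3 to 99.9 FPKM, 0.77) and Ndufa9 (31.5 to 53.7 FPKM, 0.75), both accessory subunits. The abundant Ndufa3 (168 and 187 FPKM) and Ndufb11 (84.3 and 95.3 FPKM) did not pass. All 9 subunits of complex III were higher (median 0.68), led by Cyc1, cytochrome c1 (47.4 to 96.5 FPKM, log2 fold change 1.01), the Rieske protein Uqcrfs1 (30.8 to 57.8 FPKM, 0.89) and the core protein Uqcrc2 (84.4 to 149 FPKM, 0.80).

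Complex IV had 10 of 11 nuclear subunits higher (median 0.50). Cox7a2 (50.1 to 78.7 FPKM, log2 fold change 0.64), Cox7b (100.1 to 148 FPKM, 0.55) and Cox4i1 (243 to 356 FPKM, 0.55) rose most, while Cox6a1 (639 and 676 FPKM) did not pass. Complex V had 13 of 17 higher (median 0.42), led by Atp5g3, a gene of the membrane ring (144 to 302 FPKM, log2 fold change 1.06), Atp5o of the stalk (66.2 to 122 FPKM, 0.87) and the catalytic Atp5b (678 to 1155 FPKM, 0.77). Atp5g2 (223 and 234 FPKM) and Atp5e (144 and 160 FPKM) did not pass. None of these 73 nuclear subunits was lower in limma, also not at an unadjusted p under 0.05, although limma's voom on recovered reads called 2 lower. After the shift to a common median, 40 of the 73 were higher and 2, Ndufa11 and Ndufa13, lower, beside 19.5% and 27.9% of all genes.

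Of the 45 genes tested that keep, transcribe and process mitochondrial nucleic acid, 34 were higher, beside 46.3% of all genes. Of 8 genes of mitochondrial DNA upkeep 5 were higher (median log2 fold change 0.33), among them Polg2, the accessory subunit of the DNA polymerase (1.13 to 2.17 FPKM, 0.58), Tfam, which packages the DNA and starts transcription (11.1 to 15.1 FPKM, 0.41), and the single-strand binding protein Ssbp1 (10.4 to 13.7 FPKM, 0.36). Rnaseh1 (8.16 and 8.52 FPKM) and Twnk, the helicase (3.73 and 4.27 FPKM), did not pass. Of 9 genes of transcription 8 were higher (median 0.34), led by Mterf3 (10.6 to 15.1 FPKM, 0.47), the elongation factor Tefm (4.71 to 6.64 FPKM, 0.42) and Mrpl12 (13.9 to 18.7 FPKM, 0.41), and Mterf1a (1.24 and 1.60 FPKM) did not pass.

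Of 16 genes of RNA processing and modification 14 were higher (median 0.39). Hsd17b10, a subunit of mitochondrial RNase P (31.8 to 60.7 FPKM, log2 fold change 0.91), Nsun3, which modifies the methionine tRNA (5.48 to 8.89 FPKM, 0.61), and the poly(A) polymerase Mtpap (3.58 to 5.80 FPKM, 0.57) rose most, and Nsun4 (8.17 and 8.59 FPKM) and Mto1 (6.25 and 6.99 FPKM) did not pass. Of 12 tested genes of RNA stability and decay 7 were higher (median 0.29), beside 46.3% of all genes. They were led by Fastkd1 (1.39 to 3.30 FPKM, 0.85), Lrpprc, which stabilises mitochondrial mRNAs (16.7 to 25.4 FPKM, 0.58), and the RNA granule protein Grsf1 (47.0 to 69.7 FPKM, 0.56). Rexo2 (99.5 and 103 FPKM) and Fastk (49.6 and 48.6 FPKM) did not pass. After the shift to a common median, 10 of the 45 genes tested in these 4 groups were higher and 2, Rexo2 and Fastk, lower, against 34 and 0 before it. The share called higher was then near the 19.5% of all genes, and it held 0 of the 8 upkeep genes and 1 of the 9 transcription genes.

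**Figure D4:**
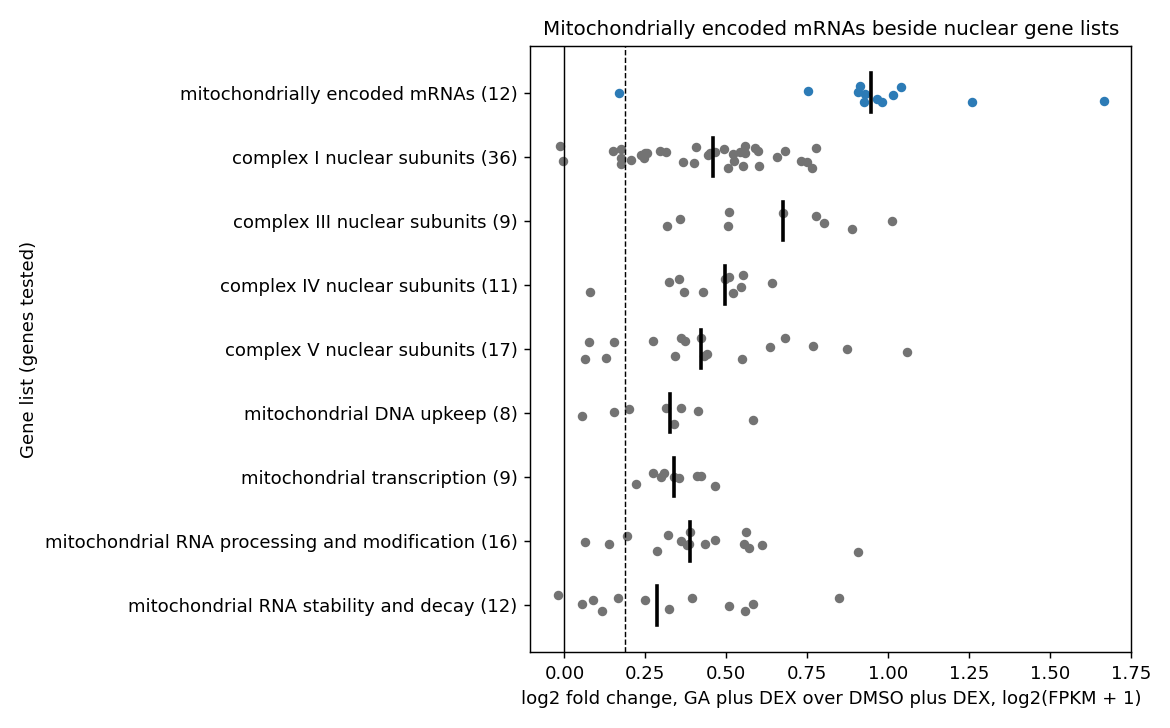
log2 fold change of GA plus DEX over DMSO plus DEX for each gene tested in 9 groups (points, jittered vertically), with the group's median (thick bars), 0 (solid line) and the median of all genes tested at 0.19 (dashed line). The median of the mitochondrially encoded mRNAs, 0.95, lies to the right of those of the nuclear groups, which run from 0.29 to 0.68.

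The summed level of the nuclear complex I subunits was 2216 and 2240 FPKM in DMSO plus DEX and 3134 and 2843 FPKM in GA plus DEX, while that of the mitochondrially encoded ones was 2199 and 2521 FPKM against 5162 and 4218 FPKM. For complex III the nuclear sums were 850 and 842 FPKM against 1334 and 1181 FPKM, beside mt-Cytb. Both kinds of subunit were thus higher in each GA plus DEX library than in either DMSO plus DEX library, and both were higher in GA plus DEX replicate 1 than in replicate 2. No test was made of the difference between mitochondrial and nuclear subunits.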

How the data were processed

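The authors deposited 1 table of FPKM values with a column per library, each matched by name to its sample. Per the submitters' processing notes, the build was mm9 and the tools were HTSeq 0.6.1, TopHat2 2.0.12 and Bowtie2 2.2.3, with no role named. For the annotation, the strand setting and the treatment of reads with several matches, nothing is given in the sources used here. Whole reads were recovered from the FPKM (60 of 60 member values above 0 within 0.001 of a read). Symbols came from a gene name table (46488 of 47069 identifiers).

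Genes with a mean of at least 1 FPKM were tested with limma 3.58.1 in R 4.3.3 on log2(FPKM + 1) computed from the deposited FPKM (lmFit, eBayes with trend, two-sided, Benjamini-Hochberg over 12174 genes). Residual degrees of freedom were 2 and prior ones 5.38. The test was also run on simulated reads in which few genes changed, equally up and down. That check does not cover a change of scale between the groups, and nothing here rests on it. Every member is accounted for; of each nuclear list the 3 largest rises and falls that passed and up to 2 abundant genes that did not pass were named. The members and lists were chosen with earlier results of these data known. Sequences and 50-base windows were read from the GENCODE M21 transcripts (GRCm38); coordinates are of that build, which is later than mm9, and belong only to the sequences printed.

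Alternatives were pseudocounts of 0.1 and 5, no minimum or a minimum of 5 FPKM, a common median, quantile normalization, FPKM rescaled without the 10 most abundant genes, voom on recovered reads, no trend, the replicate number as a block, and each library left out. Chosen after the data were seen were the fit against 7 mRNAs, the fit without moderation, the count over the 7 abundant mRNAs and the windows found in no other transcript.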

Additional observations from a re-analysis of the deposited data

How the results depend on the processing

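Of 177 planned or added values of the main counts, medians and ratios, 146 stayed as they were, that is within 1.5 times for a count and within 1 SD between replicates for a median or ratio. All 11 mRNAs called higher were called under every alternative that tested them. With a minimum of 5 FPKM, mt-Co2, mt-Atp6 and mt-Co3 were not tested and 9 mRNAs were called. Over all genes, the common median gave 2380 higher and 3392 lower, quantile normalization 2394 and 3273, rescaling without the 10 most abundant genes 3144 and 2567, and voom 2931 and 3056, against 5639 and 1454. Nuclear respiratory subunits went from 63 higher and 0 lower to 40 and 2 under the common median, with 2 lower under quantile normalization, 1 under rescaling and 2 under voom. Nuclear genes of mitochondrial DNA and RNA, 34 higher, fell to 21 without a minimum, 10 (2 lower) under the common median, 10 under quantile normalization, 18 under rescaling and 15 (2 lower) under voom. The median log2 fold change of the mRNAs, 0.95, was 0.72 under the common median, 0.80 under rescaling and 0.77 under voom, and 0.83 to 1.07 with 1 library left out. The ratio of summed FPKM, 1.93, was 1.71 under rescaling. Against the mean of the mRNAs, 5 members were called in the main fit, 9 with a pseudocount of 5 and 3 with voom. The main fit of this kind also called 90.1% of all genes, so these counts are not read as departures of the members. Without moderation 0 members and 12 of all genes were called. With 1 library left out, 0 to 2 rRNAs were called lower and 0 to 2 higher, and the log2 fold change ran from -4.14 to 0.52 for mt-Rnr1 and from -4.63 to 0.82 for mt-Rnr2. That of mt-Co3 was -0.063 under the common median, -0.11 under quantile normalization and -0.38 to 0.71 with 1 library left out. The causes were not tested. Whether same-numbered libraries are paired is not given in the sources used here. The correlation of their deviations from the group means was -0.025. It cannot settle the question, because with 2 libraries a group the deviations of replicate 2 mirror those of replicate 1. The fit with the replicate block gave 5528 higher and 1433 lower, with 11 mRNAs higher. Counting limits mt-Co3, mt-Atp8, mt-Atp6 and mt-Co2, whose reads number under 100 a library.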
